A study of Mus musculus with 2 samples.

Results

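The kinesin, dynein and myosin motor genes were examined in cortical tissue of P4H-TM KO and WT mice. Members were the genes whose symbol begins with Kif and a digit, Kifc, Dync, Dynl, or Myo and a digit, as long as a probe set annotated to a single symbol measured them. This gave 78 of 18193 measured genes, with 41 kinesins, 13 dynein genes and 24 myosins, on 174 probe sets. A probe set is a group of short probes against 1 stretch of transcript, and the one with the highest mean of both arrays stood for its gene.

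The P4H-TM KO mice lack the transmembrane prolyl 4-hydroxylase, and their WT littermates served as the controls. All were male, untreated C57BL/6J mice aged 2.5 months, and the RNA of 4 mice was pooled for each of 2 Affymetrix arrays, 1 per genotype. A difference between genotypes therefore has no replicate check, and no p-value, SD or SE between animals is given for any of them. P4htm, the targeted gene, had a log2 signal of 9.10 on the P4H-TM KO array and 11.05 on the WT array. It was thus 3.86-fold lower in P4H-TM KO, as the labels would have it, but whether its probe sets read the deleted stretch was not checked. In whole tissue, fewer cells of a type and less RNA per cell cannot be told apart.

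Motor proteins turn ATP into movement along the cytoskeleton. Most kinesins walk toward the plus ends of microtubules and carry vesicles and mitochondria outward along axons, cytoplasmic dynein carries cargo back toward the cell body, and myosins move on actin, where they position vesicles, recycle receptors and shape spines and filopodia. In a neuron, whose synapses lie far from its nucleus, this traffic supplies and clears the terminals, and further kinesins build the mitotic spindle of dividing cells or extend cilia.

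Counts were taken over genes whose mean log2 signal reached 6.385, which is the middle value of the probe sets on the arrays and is called the filter here. Of the 48 motor genes that passed it, 0 were 1.5-fold higher and 0 were 1.5-fold lower in P4H-TM KO than in WT. Among all 11730 genes above this filter, 0.631% were 1.5-fold higher and 0.0512% were 1.5-fold lower. At a smaller fold of 1.2, which is a log2 difference of 0.263, no motor gene was higher and 1 was lower, namely Myo6. The share of all genes above the filter was 2.90% for higher and 1.83% for lower values, so 1 of 48, or 2.08%, was close to the background. Log2 differences stayed within 0.1 for 36 of the 48 motor genes (75%), against 69.9% of all genes above the filter. The median log2 difference of the 78 motor genes was −0.015, with 31 higher, 42 lower and 5 equal, and that of all 18193 genes was 0.00. By superfamily the medians were −0.01 for kinesins, 0.01 for dynein genes and −0.035 for myosins. Removing a trend of the difference with signal turned the sign for all motor genes, to 0.0067, and for kinesins, to 0.0082. Dropping probe sets that can match several transcripts turned that of the dynein genes, to −0.015, and the mean of the myosins was 0.0017. These signs were thus not stable.

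**Figure D1:**
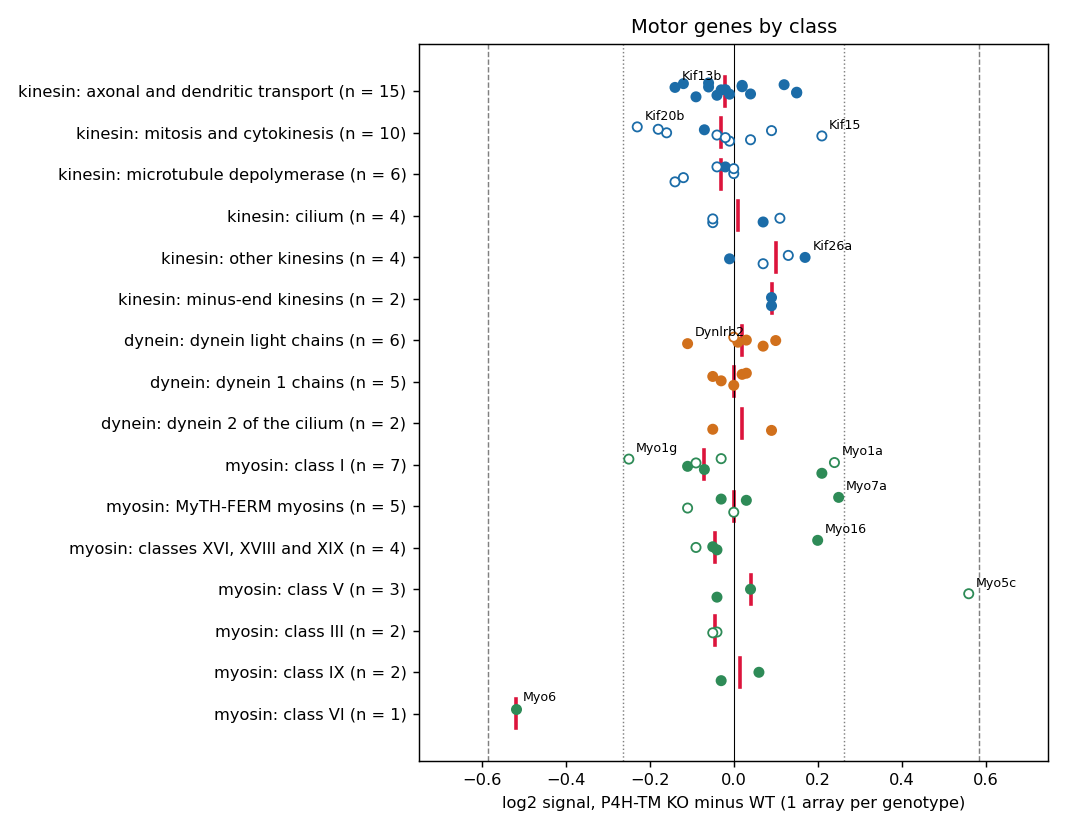
Log2 signal in P4H-TM KO minus WT for each motor gene, by class of motor, with filled points for genes at or above the signal filter and open points for genes below it. Red bars are class medians, dotted and dashed lines mark 1.2-fold and 1.5-fold, and there are no error bars because each genotype has 1 array; only Myo6 at −0.52 and Myo5c at 0.56 lie outside the dotted lines.

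**Figure D2:**
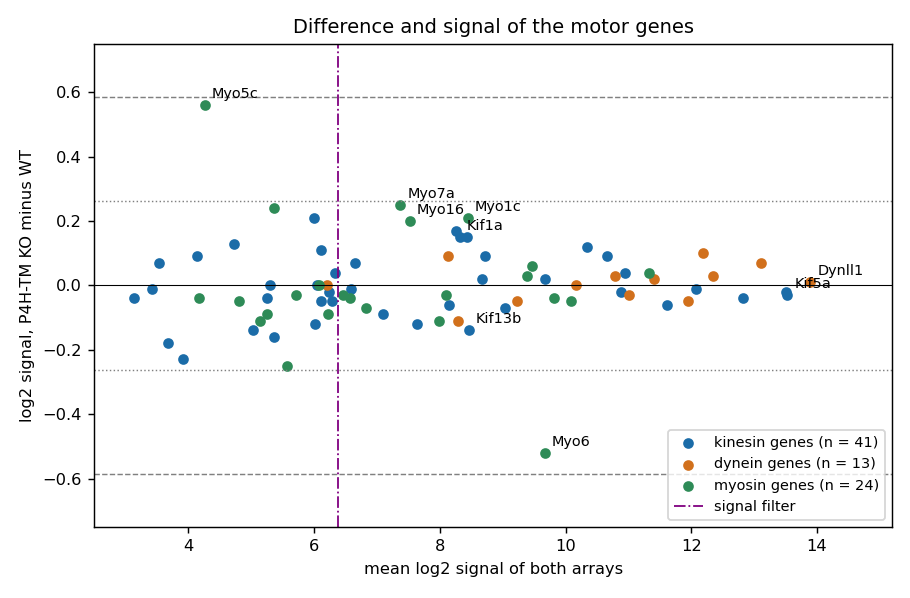
Log2 difference (P4H-TM KO minus WT) of each motor gene against its mean log2 signal on both arrays, coloured by superfamily. The vertical line is the signal filter at 6.385, dotted and dashed lines mark 1.2-fold and 1.5-fold, and the dynein genes lie between −0.11 and 0.10.

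The spread between probe sets of a gene was used as a scale for these differences, since no replicate exists. Pooled over genes, the SD of the log2 difference among probe sets above the filter was 0.13 for 24 motor genes and 0.10 for 5101 genes of all kinds, a measure of how the arrays read 1 gene and not of how mice vary. Of the 44 motor genes with several probe sets, 29 had probe sets of both signs. The same share over all genes was not computed, so this count cannot be read as particular to motor genes. For these 29 the sign depended on the probe set, some of which lay below the filter, and motor genes with 1 probe set had no such check. The median size of the difference was 0.055 in motor genes above the filter and 0.07 in all genes above it, and below the filter it was 0.08 in motor genes and 0.13 in all genes.

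The kinesins of axonal and dendritic transport numbered 15, all above the filter, of which 6 were higher and 9 lower in P4H-TM KO, with differences from −0.14 to 0.15. Kif5a, Kif5b and Kif5c encode the heavy chains of conventional kinesin, which hauls vesicles, mitochondria and neurofilament subunits. Kif5a had a log2 signal of 13.51 in P4H-TM KO and 13.54 in WT. Kif5b had 12.07 in P4H-TM KO and 12.08 in WT, and Kif5c had 13.49 in P4H-TM KO and 13.51 in WT. All 3 differences, −0.03, −0.01 and −0.02, were smaller than the spread between probe sets. Other probe sets were less level. Those of Kif5b above the filter ran from −0.17 to −0.01, with 0.23 on one below it. Kif5c reached 0.10 above the filter and −0.19 below it, and Kif5a gave −0.04 above it and 0.15 below it.

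Kif1a and Kif1b encode carriers of synaptic vesicle precursors, and Kif1b also moves mitochondria. Kif1a had a log2 signal of 8.39 in P4H-TM KO and 8.24 in WT, a difference of 0.15, with 0.04 on its other probe set. Kif1b had 12.81 in P4H-TM KO and 12.85 in WT on its brightest probe set. The bright probe sets of Kif1b were level between the genotypes, but its dim ones were higher in P4H-TM KO. The signal at the widest gap was 7.10 in P4H-TM KO and 6.54 in WT, a log2 difference of 0.56, and 2 more dim probe sets differed by 0.33 and 0.50. Kif1b was the only motor gene whose probe sets above the filter lay more than 0.5 apart, and with all 7 averaged its difference was 0.19. Which Kif1b transcripts each probe set reads was not examined.

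Kif3a, Kif3b and Kif3c encode the motors of kinesin-2, which serves axonal transport and the cilium. Kif3a had a log2 signal of 10.97 in P4H-TM KO and 10.93 in WT. Kif3b had 8.51 in P4H-TM KO and 8.36 in WT, and Kif3c had 10.40 in P4H-TM KO and 10.28 in WT. These were differences of 0.04, 0.15 and 0.12, the last 2 near the upper end of the transport kinesins; the dimmest probe set of Kif3b had the opposite sign, at −0.12. Kif17, which carries NMDA receptor vesicles in dendrites, had 7.58 in P4H-TM KO and 7.70 in WT, and its second probe set above the filter gave −0.13 beside this −0.12.

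At the lower end stood Kif13b, a carrier of PIP3-binding cargo, with a log2 signal of 8.39 in P4H-TM KO and 8.53 in WT. Its 4 probe sets were all lower in P4H-TM KO, with differences from −0.53 to −0.14, and only the brightest lay above the filter. Averaged over the 4, the difference was −0.285, which is past 1.2-fold. Kif13a, a carrier of recycling endosomes, had 8.68 in P4H-TM KO and 8.66 in WT on its brightest probe set, whereas 3 dimmer probe sets above the filter differed by −0.37, −0.18 and −0.32. Thus the brightest probe set of Kif13a was level and the others above the filter were lower, while 1 below it gave 0.17. Kif16b, which moves early endosomes, had 7.06 in P4H-TM KO and 7.15 in WT, with 0.20 on a probe set below the filter. Kif21a and Kif21b, which also restrain microtubule growth, each differed by −0.06. Kif1c differed by 0.02 on its brightest probe set and by −0.18 on another above the filter.

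**Figure D3:**
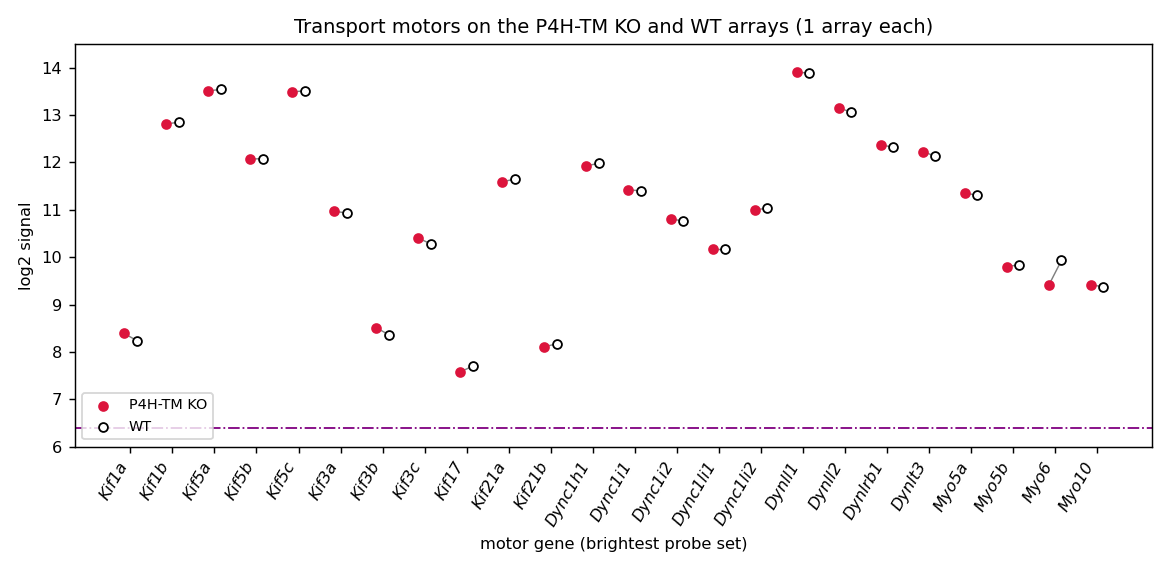
Log2 signal of transport motors on the P4H-TM KO array (red) and the WT array (open), from the brightest probe set of each gene, with the signal filter as a dash-dotted line. Each point is a single array and has no error bar; apart from Myo6, at 9.41 in P4H-TM KO and 9.93 in WT, the paired points nearly coincide, and heights are not compared between genes.

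Of the other kinesins, most lay near or below the filter. Of 10 kinesins of mitosis and cytokinesis, 9 were below the filter, 3 were higher and 7 lower in P4H-TM KO, and the class median was −0.03. Kif15, a spindle motor, had a log2 signal of 6.11 in P4H-TM KO and 5.90 in WT, the highest difference of the class at 0.21. Kif20b, a motor of cytokinesis, had 3.80 in P4H-TM KO and 4.03 in WT, the lowest at −0.23, with 0.26 on another probe set. Kifc5b, at 3.59 in P4H-TM KO and 3.77 in WT, had a difference of −0.18. Kif22, which binds chromosome arms, was the member above the filter, with 9.0 in P4H-TM KO and 9.07 in WT, on a probe set that can match other transcripts. Its other probe sets, both below the filter, differed by −0.24 and 0.45, so Kif22 has no settled direction. Markers of dividing cells had a median of −0.14, with 6 of 9 lower and 2 of 9 above the filter, and their part in the values of these kinesins was not tested.

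Among kinesins that shorten microtubules, Kif2a, which trims collateral axon branches, was above the filter, with a log2 signal of 10.87 in P4H-TM KO and 10.89 in WT. The other 5 were below it, with differences from −0.14 to 0. Of the ciliary kinesins Kif6, Kif7, Kif9 and Kif27, only Kif7, which regulates Hedgehog signaling, was above the filter, with a difference of 0.07, and the others ranged from −0.05 to 0.11. The minus-end motors Kifc2 and Kifc3 each differed by 0.09. Kif26a, an atypical kinesin without motor activity, had 8.34 in P4H-TM KO and 8.17 in WT on its single probe set, which at 0.17 was the highest difference among kinesins above the filter. Kif12, below the filter, had 4.79 in P4H-TM KO and 4.66 in WT.

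The dynein genes varied least on their brightest probe sets. Of 12 above the filter, 11 were within 0.1, and the range was −0.11 to 0.10. Dync1h1, which encodes the heavy chain with the motor domain, had a log2 signal of 11.93 in P4H-TM KO and 11.98 in WT, and a very dim probe set of it differed by −0.27. The intermediate chains, which hold the light chains and bind dynactin, were level, with Dync1i1 at 11.42 in P4H-TM KO and 11.40 in WT and Dync1i2 at 10.80 in P4H-TM KO and 10.77 in WT. The light intermediate chains, which bind cargo adaptors, were level too, with Dync1li1 at 10.17 on both arrays and Dync1li2 at 11.00 in P4H-TM KO and 11.03 in WT. On their brightest probe sets, these subunits of the cytoplasmic dynein core differed by at most 0.05, while the second probe set of Dync1li2 gave 0.06 and Dync1h1 averaged −0.16 over its 2 probe sets.

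Of the light chains, Dynll1 and Dynll2, dimerizing hubs that also bind myosin V and many other proteins, had log2 differences of 0.01 and 0.07. The 4 probe sets of Dynll1, all above the filter, ranged from −0.06 to 0.21, and the second of Dynll2 gave −0.04. Dynlt3 had a log2 signal of 12.23 in P4H-TM KO and 12.13 in WT, the highest difference of the dynein genes, and its 4 probe sets ranged from −0.04 to 0.11. Dynlrb2, a roadblock light chain, had 8.23 in P4H-TM KO and 8.34 in WT, the lowest difference at −0.11, while its paralog Dynlrb1 had 12.36 in P4H-TM KO and 12.33 in WT. The Dynlt1 copies are near identical and cannot be read apart, and the 1 probe set annotated to Dynlt1f alone had 6.20 on both arrays. Probe sets annotated to several copies, which the choice of members left out, had 9.64 in P4H-TM KO and 9.69 in WT, and 8.74 in P4H-TM KO and 8.67 in WT. Another of them, below the filter, had 5.67 in P4H-TM KO and 5.35 in WT, a difference of 0.32. For the dynein of the cilium, Dync2h1 had a difference of 0.09 and Dync2li1 one of −0.05.

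The myosins held the widest differences of the family. Myo6 encodes the myosin that walks toward the minus end of actin and serves endocytosis, including that of AMPA receptors. On its brightest probe set it had a log2 signal of 9.41 in P4H-TM KO and 9.93 in WT, a difference of −0.52, or 1.43-fold lower in P4H-TM KO. Of the 11730 genes above the filter, 10 had a difference of −0.52 or less. A second probe set, also above the filter, had 9.47 in P4H-TM KO and 9.56 in WT, a difference of −0.09, and the third, at 5.05 in P4H-TM KO and 4.92 in WT, differed by 0.13. The lower Myo6 signal thus rests on 1 of 3 probe sets, and averaged over them the difference was −0.16. Without Myo6 the median of the myosins was −0.03.

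Myo5c, a class V myosin of secretory epithelia, was the other member beyond 1.2-fold, at a signal below the filter. It had 4.54 in P4H-TM KO and 3.98 in WT, a log2 difference of 0.56, and 3.99 in P4H-TM KO and 3.72 in WT on its other probe set. Both probe sets of Myo5c were higher in P4H-TM KO, both below the filter. Below the filter, 6.33% of 6463 genes were at least 1.2-fold higher and 10.5% at least 1.2-fold lower, against 1 higher and 0 lower of the 30 motor genes there, and 45 of the 6463 reached 0.56. The choroid plexus, a secretory epithelium, had markers with a median log2 difference of 1.61 in the same comparison, all 13 of those measured being higher in P4H-TM KO and 12 of them above the filter. Their log2 signals averaged 9.22 in P4H-TM KO and 7.75 in WT, with ranges of 6.84 to 14.86 in P4H-TM KO and 5.90 to 14.49 in WT, and their part in the Myo5c value was not tested. Its relatives of the cortex, Myo5a, which carries endoplasmic reticulum and vesicles into spines, and Myo5b, which moves recycling endosomes, had 11.35 in P4H-TM KO and 11.31 in WT, and 9.80 in P4H-TM KO and 9.84 in WT. Both were level on these brightest probe sets, at 0.04 and −0.04. Another probe set of Myo5a above the filter gave −0.10, and a Myo5b probe set below the filter gave 0.28.

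The promoters of Myo6 and Myo5c are shown because these genes had the widest differences and P4H-TM belongs to an enzyme family that acts on HIF. They run from 250 bases before to 50 after the start site in RefSeq (GRCm38.p6), and capitals mark the core of the hypoxia response element, ACGTG or GCGTG on either strand. Myo6 lies at chr9:80164784-80165083 on the plus strand and Myo5c at chr9:75231764-75232063 on the plus strand.
Myo6: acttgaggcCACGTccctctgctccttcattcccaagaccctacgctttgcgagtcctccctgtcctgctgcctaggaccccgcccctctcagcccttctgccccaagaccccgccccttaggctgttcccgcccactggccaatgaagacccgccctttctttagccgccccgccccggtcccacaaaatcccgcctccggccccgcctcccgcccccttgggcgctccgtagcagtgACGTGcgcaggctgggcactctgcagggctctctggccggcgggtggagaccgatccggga
Myo5c: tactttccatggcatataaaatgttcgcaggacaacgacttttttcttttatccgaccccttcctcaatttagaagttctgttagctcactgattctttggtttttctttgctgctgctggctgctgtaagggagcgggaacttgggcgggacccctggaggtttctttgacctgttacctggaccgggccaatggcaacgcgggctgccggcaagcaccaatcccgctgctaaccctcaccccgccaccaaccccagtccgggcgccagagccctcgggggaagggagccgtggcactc
The Myo6 window held 2 matches and the Myo5c window 0. Of 63 motor genes with a sequence, 35 held the core in at least 1 window (55.6%), as did 59.3% of 14452 measured genes and 43.8% of all 32851 windows. The median log2 difference was −0.02 in motor genes with the core and −0.005 in the 28 without it, against 0.00 and −0.01 in all measured genes with and without it. A match describes the letters and not a site that HIF binds.

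**Figure D4:**
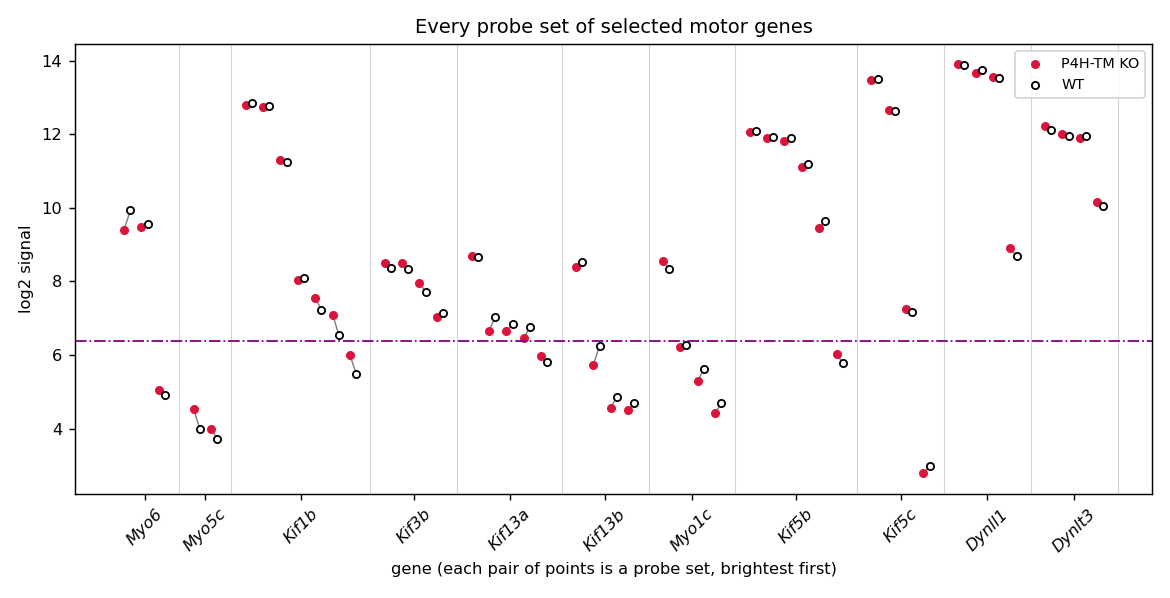
Log2 signal of every probe set of selected motor genes in P4H-TM KO (red) and WT (open), with a line joining the arrays and the signal filter as a dash-dotted line. Each point is 1 array without an error bar; the brightest Myo6 probe set is apart while its second is level, and the dim probe sets of Kif1b are apart while its bright ones are level.

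Among the remaining myosins above the filter, Myo7a, a motor of sensory stereocilia, had the highest difference, at a log2 signal of 7.50 in P4H-TM KO and 7.25 in WT on its single probe set. Myo1c, a class I myosin of membrane tension and exocytosis, had 8.55 in P4H-TM KO and 8.34 in WT on its brightest probe set, which can match other transcripts. Its 3 other probe sets, all below the filter, differed by −0.06, −0.34 and −0.28, and the average was −0.12, so Myo1c has no settled direction. Myo16, a neuronal myosin, had 7.62 in P4H-TM KO and 7.42 in WT on 1 probe set. Myo7a and Myo16 were thus higher by 0.25 and 0.20, short of 1.2-fold, each on a single probe set. At the lower end after Myo6 stood Myo1d, at 7.94 in P4H-TM KO and 8.05 in WT, Myo1e, at 6.79 in P4H-TM KO and 6.86 in WT, and Myo18a, at 10.06 in P4H-TM KO and 10.11 in WT. Their differences of −0.11, −0.07 and −0.05 were all within the spread between probe sets.

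Myo10, which builds filopodia, had 9.41 in P4H-TM KO and 9.38 in WT, with up to 0.17 on dimmer probe sets. Myo9a and Myo9b, the class IX myosins, differed by 0.06 and −0.03 on their brightest probe sets, and the other probe set of Myo9a, also above the filter, gave −0.17. Below the filter, Myo1a, the myosin of intestinal brush borders, had 5.49 in P4H-TM KO and 5.25 in WT, and Myo1g, a myosin of blood cells, had 5.45 in P4H-TM KO and 5.70 in WT. Myo15, of the stereocilia, had 5.09 in P4H-TM KO and 5.20 in WT. Markers of microglia, the resident immune cells of the cortex, had a median of −0.02 over 9 genes.

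Of the 78 motor genes, 10 lie on chromosome 9, as P4htm does, and both Myo6 and Myo5c are among them, which was noticed after their values were seen. In gene order, Myo6 lies 216 measured genes away from P4htm, and Myo5c 257 away. The nearest motor genes were Kif9, 40 measured genes away, with a difference of 0.11, and Dync1li1, 80 away, with equal values. The 10 had 6 higher, 3 lower and 1 equal value, with a median of 0.05, against 0.00 for all 1002 measured genes of the chromosome. Above the filter, 30 of the 674 genes of chromosome 9 were at least 1.2-fold lower (4.45%, against 1.83% of all genes) and 31 at least 1.2-fold higher (4.6%, against 2.90%), and the chromosome held 5 of the 6 genes that were at least 1.5-fold lower, P4htm among them. Whether sequence near the targeted gene touches these probe sets was not tested.

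The position of mitochondria was examined by the study in cultured astrocytes, which were not analysed here, and the machinery that moves them was measured in the cortex. Trak1 and Trak2, the adaptors that link mitochondria to kinesin and dynein, had log2 signals of 10.74 in P4H-TM KO and 10.66 in WT, and of 10.76 in P4H-TM KO and 10.84 in WT. Rhot1 and Rhot2, the calcium-sensing Miro proteins of the outer mitochondrial membrane, had 10.69 in P4H-TM KO and 10.75 in WT, and 8.91 in P4H-TM KO and 8.78 in WT. Myo19, the mitochondrial myosin, had 6.56 in P4H-TM KO and 6.60 in WT. With Kif5b and Kif1b, none of these genes differed by more than 0.13 on its brightest probe set, and their signs were mixed.

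The partners of the motors were read from lists. Of 20 measured genes of dynactin and dynein regulators, 10 were higher and 10 lower, with a median of −0.005. The lowest was Nde1, a regulator of dynein in dividing progenitors, at 7.70 in P4H-TM KO and 8.0 in WT, the 1 of 18 members above the filter at 1.2-fold lower (5.56%, against 1.83% of all genes), and the highest were Hook2 and Hook1, at 0.26 and 0.14. The dynactin subunits Dctn1 to Dctn6 lay between −0.04 and 0.03. Of 27 kinesin light chains and cargo adaptors, 9 were higher, 15 lower and 3 equal, with a median of −0.02. Sntb1, a syntrophin of the membrane cytoskeleton, had 7.79 in P4H-TM KO and 7.05 in WT, the 1 of 27 members at 1.5-fold higher (3.70%, against 0.631% of all genes). Its other probe sets, all below the filter, ranged from −0.15 to 0.91. Map7, which recruits conventional kinesin to microtubules, was the lowest at −0.21. Apart from Sntb1, no member of this list reached 1.2-fold.

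Of 19 myosin partners and light chains, 11 were higher and 8 lower, with a median of 0.03, and 2 of the 17 above the filter were at least 1.5-fold higher (11.8%, against 0.631% of all genes). These were Dab2, an adaptor of Myo6 in endocytosis, at 7.62 in P4H-TM KO and 6.87 in WT, and Tpm2, a tropomyosin of smooth muscle, at 8.44 in P4H-TM KO and 7.85 in WT. Myl9, a smooth muscle light chain, had 8.79 in P4H-TM KO and 8.35 in WT. Dab2 was higher on 3 of its 4 probe sets, with −0.18 on the dimmest. Tpm2 gave 0.29 on its other probe set above the filter, and −0.03 and −0.1 on those below it. The meninges markers were higher in the same comparison, with a median of 0.40 and 10 of 11 higher. Their log2 signals ran from 6.52 to 11.27 in P4H-TM KO and from 6.42 to 10.37 in WT, and their part in the values of Dab2, Tpm2 and Myl9 was not tested.

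Markers of the main cell types showed which tissue the motors were read in. All 10 neuron markers were above the filter, with a median of −0.015 and a range of log2 signals of 9.04 to 14.05 in P4H-TM KO and 9.01 to 14.13 in WT. The 10 astrocyte markers had a median of −0.045, with 2 higher, 7 lower and 1 equal, and differences from −0.23 to 0.04. All 13 oligodendrocyte markers were lower in P4H-TM KO, with a median of −0.27 and signals of 7.23 to 14.59 in P4H-TM KO and 7.46 to 14.67 in WT, and their part in any motor difference was not tested. Markers of ependymal cilia had a median of −0.03 over 11 genes, with 4 higher and 6 lower. Of the 7 above the filter, 2 were higher and 5 lower, with a median of −0.1. Tmem212 and Ccdc153, at −0.47 and −0.43, were the 2 of 7 at least 1.2-fold lower (28.6%, against 1.83% of all genes). Their part in the values of the ciliary motors was not tested.

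**Figure D5:**
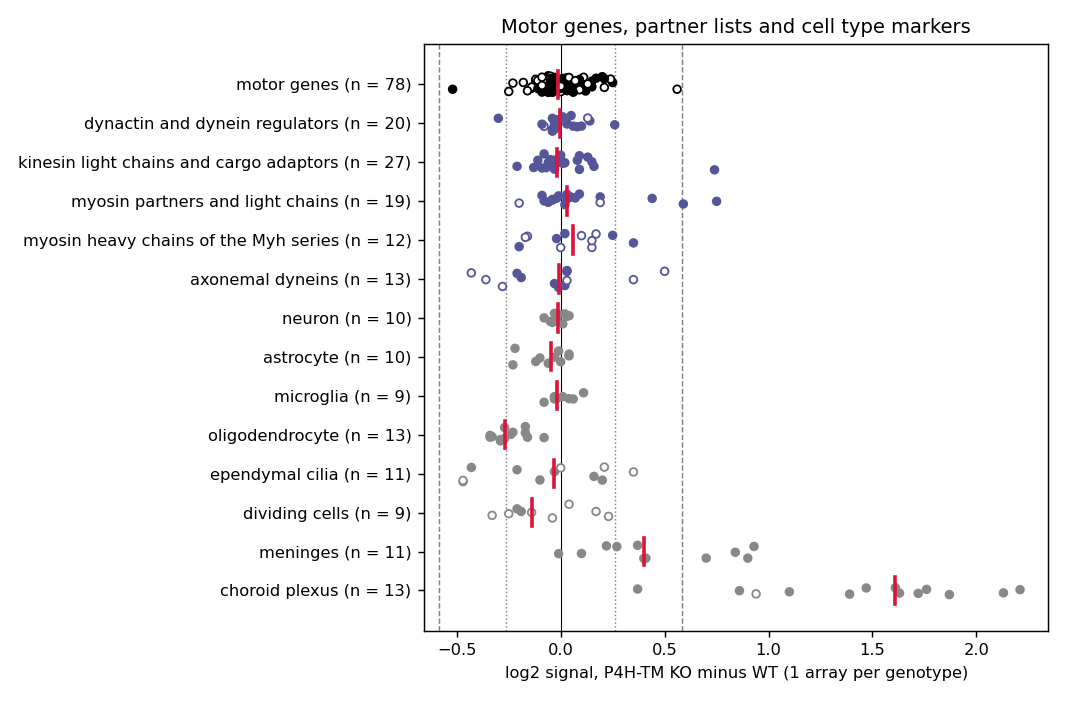
Log2 signal in P4H-TM KO minus WT for the motor genes (black), the lists of partners and related motors (blue) and the cell type markers (grey), with filled points at or above the signal filter and open points below it. Red bars are medians, dotted and dashed lines mark 1.2-fold and 1.5-fold, and 1 array per genotype leaves no error bars; the motor median lies at −0.015 and the choroid plexus median at 1.61.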

How the data were processed

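Total RNA of cortical tissue was labeled with biotin and hybridized to Affymetrix Mouse Genome arrays. Per the study's methods, scanned images were read with the GeneChip Operating System, and GenePattern served for normalization. RMA appears in the processing notes of the submitters, and its version is not given in the sources used here. The deposited log2 signals have 2 decimals, lie between 2.69 and 14.91, and centre on 6.39 (P4H-TM KO) and 6.38 (WT), and the number of arrays limits the precision.

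Probe sets were named from the platform annotation, with 34958 carrying 1 symbol and 932 several, and all 78 motor genes matched a RefSeq entry of GRCm38.p6. The members and lists were chosen with earlier results of these data known. No test was possible, so calls are folds of 1.5 and 1.2 on log2 values. The code for the differences and the 1.5-fold counts was checked on simulated data, in which the probe sets of a gene shifted together. Counts at 1.2-fold were not simulated, and the check does not measure how reliable the differences are.

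Named genes were the 4 highest and 4 lowest members of each superfamily above the filter and the 2 highest and 2 lowest below it. To these came members at 1.2-fold, those with probe sets above the filter more than 0.5 apart, and motors of cortical transport. Of the partner lists, some extremes were named and others left out, among them the lowest myosin partner above the filter, Gipc1 at −0.09. Other members were named for their class after their values were seen. Alternatives averaged probe sets, dropped those named _s_at, _x_at or _a_at, centred the arrays, removed the trend with signal by lowess (span 0.3) or changed the filter. The names dropped mark probe sets that can match several transcripts, of the same gene or of others. Computations ran in Python 3.11.15 with pandas 2.3.3 and numpy 2.4.6, lowess came from statsmodels 0.14.6, and matplotlib 3.10.9 drew the plots.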

Additional observations from a re-analysis of the deposited data

How the results depend on the processing

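Each genotype has 1 array, so no replicate could be left out, and no direction in the motor genes was tested. Of 65 alternative values for the medians, the counts and P4htm, 58 stayed within the tolerance. For medians it was 0.0209 to 0.0512, set from the SD between probe sets and the number of genes. For counts it was a ratio of up to 1.5, or equality where a count was 0, and for P4htm it was 0.147. Some of the 65 were fixed in advance, since leaving out Myo6 cannot change the medians of kinesins and dynein genes. The median of all motor genes, −0.015, was 0.0067 with the trend with signal removed. No count at 1.5-fold changed from 0 under any alternative run. The count at 1.2-fold higher was 1 without a filter, where Myo5c entered it. With probe sets averaged, 40 motor genes in place of 48 passed the filter and the count at 1.2-fold lower was 0. Kif13b came to −0.285 there but no longer passed the filter, and Myo5c, at 0.415, was below it in both settings. The count was also 0 without Myo6, which was left out only once its value was known. P4htm, at −1.95, came to −1.795 on averaging its probe sets and to −1.64 on its other probe set. That one remains when probe sets that can match several transcripts are dropped. Of 188 alternative values for 48 named motor genes, 180 stayed within 0.147, the SD between all probe sets of a gene. Many of the 188 had no room to move. Centring shifted all differences alike by far less than this SD, and the fitted trend ran only from −0.045 to 0.010. Averaging cannot change a gene with 1 probe set. The 180 is therefore no measure of stability, and 4 values moved on averaging and 4 on dropping probe sets. Of the 188, 18 had the opposite sign, 12 of them on averaging and 6 on dropping probe sets that can match several transcripts. The 8 that moved were 1 for Kif16b, 1 for Kif1b, 2 for Kif20b, 1 for Kif22, 2 for Myo1c and 1 for Myo6.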

Other observations

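Of 12 measured conventional myosin heavy chains, 7 were higher and 4 lower in P4H-TM KO, with a median log2 difference of 0.06, and 2 of the 5 above the filter were within 0.1. The nonmuscle chains Myh9 and Myh10, which contract the cell cortex, had 10.22 in P4H-TM KO and 10.20 in WT, and 11.86 in P4H-TM KO and 11.88 in WT. Myh14, the third nonmuscle chain, had 8.77 in P4H-TM KO and 8.97 in WT. Myh11, the smooth muscle chain, had 6.91 in P4H-TM KO and 6.56 in WT. It was the 1 of 5 chains above the filter at least 1.2-fold higher (20%, against 2.90% of all genes). Myh7, a chain of cardiac and slow muscle, had 8.80 in P4H-TM KO and 8.55 in WT. Of 13 axonemal dynein genes, which beat motile cilia, 6 were higher and 7 lower, with a median of −0.01 and a range of −0.43 to 0.50, and the 7 above the filter ranged from −0.21 to 0.03.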
